A study of Xenopus laevis with 12 samples.

Results

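Whole Xenopus laevis embryos treated with Chiron (CHIR 99021) were compared with the Control embryos of the same series, across all genes of a table of read counts. The comparison is between 6 of the 12 libraries, 3 Chiron and 3 control, chosen by their treatment labels, while the model was fitted to all 12. It covers 18791 of the 18892 genes of the table, those that passed a filter on low counts. Each library was made from poly-A RNA of 3 pooled embryos collected at stage 9.5, the early gastrula per the labels, and the other 6 libraries come from embryos given genistein or BIO (6-bromoindirubin-3'-oxime). Genistein was given at the 4-cell stage. The sources used here give neither the time and dose of Chiron nor what the control embryos received in its place. The labels name no strain, clutch or sex, and nothing says whether the 3 libraries of a group came from separate clutches, so every p-value reflects the spread between these libraries only, which may be technical.

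Chiron inhibits glycogen synthase kinase 3, the kinase that marks β-catenin for destruction. When the kinase is blocked, as when a Wnt ligand is bound, β-catenin accumulates, enters the nucleus and activates genes together with Tcf/Lef factors. In the frog embryo this first happens after fertilization on the future dorsal side, where β-catenin turns on siamois and its twin and nodal3. These genes set up the Spemann organizer, which secretes antagonists of bone morphogenetic proteins (BMPs). After zygotic transcription has begun, Wnt8 signalling works instead on the ventral and lateral side, with another set of targets. X. laevis is an allotetraploid: most genes have a homeolog on a long (L) and a short (S) chromosome, and several genes named here also have tandem copies. Reads of near-identical copies could have been split between them in counting, so the value of a single copy is uncertain.

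Levels are given in CPM, counts scaled to a library of 1000000 counts, with library sizes adjusted by TMM, and differences as log2 fold changes, Chiron minus control, with the standard error (SE). Each gene was tested in edgeR's quasi-likelihood model of all 12 libraries, once with group means only and once with the log2 percent of counts on mitochondrially encoded genes as a covariate. A gene was called where its p, adjusted by Benjamini-Hochberg over all genes tested, was under 0.05. Total counts lay between 13158728 and 15486533 in the 6 libraries, and 3 counts were worth 0.194 to 0.228 CPM. The controls differed widely in mitochondrial share, which was 13.55% in control 1, 0.946% in control 2 and 4.23% in control 3, against 0.999%, 1.40% and 1.62% in Chiron 1 to 3. The share of counts on ribosomal protein genes was also highest in control 1, at 0.461%, and lay between 0.182% and 0.254% in the other 5. On the first principal component control 1 stood at −55.4 and control 3 at 1.24, while control 2, at 27.6, stood next to the Chiron libraries at 23.3 to 26.9. Control 2 was thus the control library most like the Chiron libraries in mitochondrial share. What sets the mitochondrial share, and its part in each result below, was not tested.

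Chiron embryos had higher levels of the earliest dorsal β-catenin targets, of several organizer genes, of the ventx2 homeobox genes and of a few ectodermal regulators, most by more than 2-fold, while a smaller set of genes was lower by less. With the covariate 94 genes were called higher, 0.5% of those tested, and 23 lower, 0.122%. Without it 0 genes were called in either direction by edgeR, where the smallest adjusted p was 0.0874. Without the covariate and at an unadjusted p under 0.05 there were 416 higher and 715 lower genes, and DESeq2 called 31 higher and 24 lower. With the covariate, the unadjusted counts were 715 higher and 619 lower of the 18791 genes, and DESeq2 called 164 higher and 61 lower. In the text below, "rose" and "fell" are used only of genes called with the covariate. Unless said otherwise, log2 fold changes below are from the fit with the covariate, and for most genes that rose the value without it was smaller. The common biological coefficient of variation was 22.4% without the covariate and 10.96% with it. All 94 and all 23 genes had the same sign in both fits, as did 65.4% of all genes tested. The size of the difference did depend on the covariate: the median log2 fold change of the 94 genes was 1.98 with it and 1.31 without it, and that of the 23 genes was −0.59 and −0.52.

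**Figure D1:**
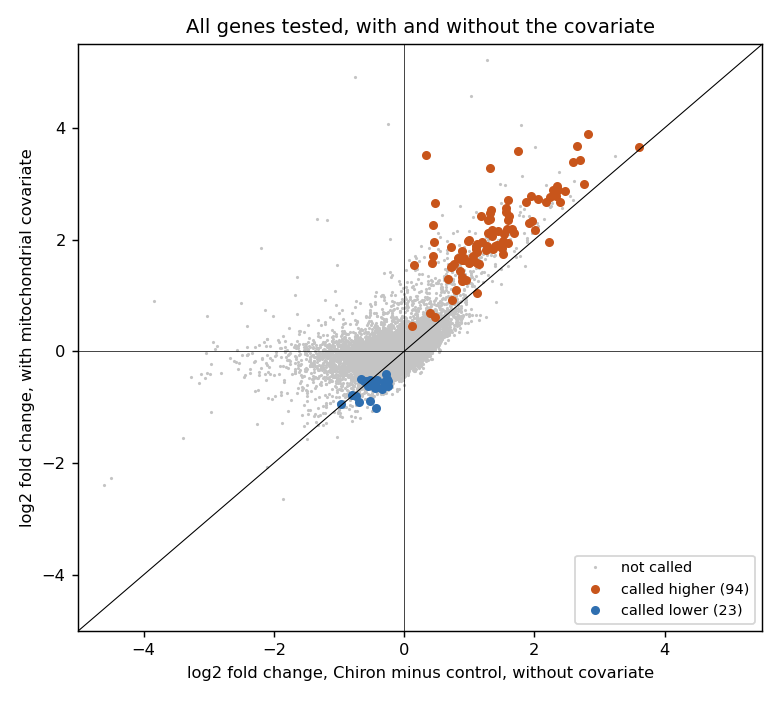
Log2 fold change of every gene tested, Chiron minus control, without (x axis) and with (y axis) the mitochondrial covariate; orange points are the 94 genes called higher and blue points the 23 called lower with the covariate, and the diagonal marks equal values. Most of the orange points lie above the diagonal, so their difference was larger with the covariate.

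Of the 94 genes that rose, 90 did so by 2-fold or more, and only tsc1.S of the 23 that fell did. The genes that rose were scarce transcripts, with a median level of 6.93 CPM in control and 15.2 CPM in Chiron, where the genes that fell had medians of 74.7 and 51.7 CPM. In 64 of the 94, all Chiron libraries were above all controls, as in 11.1% of all genes tested, and in 16 of the 23 all Chiron libraries were below, as in 9.35%. The same libraries made the calls, so an excess over all genes follows from the selection and is no independent check. The controls were not alike for these genes: control 1 was the highest control for 91 of the 94, against 43.8% of all genes, and control 2 the lowest for 74. The fitted slope on the mitochondrial share was positive for 92 of the 94 genes, against 49.4% of all genes. Within the treated group, Chiron 2 was the lowest library for 80 of the 94, against 34.4% of all genes. Left out in turn, each of the 12 libraries moved the number of genes called higher to between 24 and 138 and that called lower to between 2 and 39. The lowest count of higher genes, 24, came without control 2, while 43 were called without control 3 and 56 without Chiron 3. Genes called lower numbered 2 without control 3 or Chiron 3, 4 without control 2, 6 without Chiron 2, 12 without control 1, 15 without genistein 3 or BIO 3, and 39 without genistein 2. With control 2 as the only control, an alternative added after the data were seen, 13 genes were called higher and 1 lower. The control then has no replicate: its 1 library is assumed to vary like those of the other groups, which supply the spread.

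The relation to the mitochondrial share differed between genes. In control, sia1.L, chrd.1.L and ventx2.L were at their highest in the library with the largest mitochondrial share, whereas plk3.S was at 75.0 to 75.7 CPM in all 3. The Chiron libraries had small shares, and for a gene with a positive slope the fit sets them against the lower level fitted for control at such a share.

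**Figure D2:**
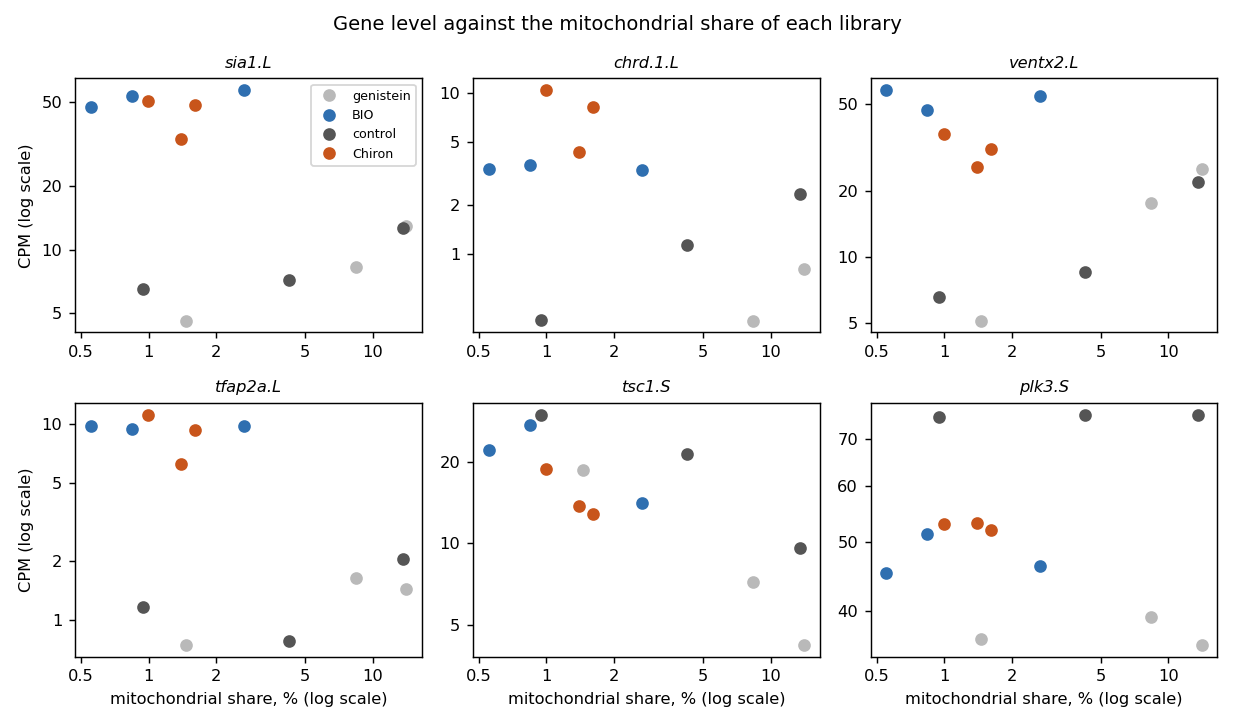
Level of 6 genes in CPM (log scale) against the percent of counts on mitochondrially encoded genes (log scale) in each of the 12 libraries, coloured by group; genistein 2 had 0 counts of chrd.1.L and is not drawn there. The 3 Chiron libraries lie at shares of 0.999% to 1.62%, near control 2 at 0.946%, and above it for sia1.L, chrd.1.L, ventx2.L and tfap2a.L.

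Most of the direct dorsal targets of β-catenin rose. The list held 8 measured copies of sia1, sia2, nodal3, nodal5 and nodal6. Of the 8, 6 rose, against 0.5% of all genes tested, and the list median was 1.91 on the log2 scale against 0.01 for all genes. Without the covariate the medians were 1.51 and 0.02. Siamois, a homeobox gene that starts the organizer program, is represented by sia1.L. It was at 12.7, 6.51 and 7.17 CPM in control 1 to 3 and at 50.5, 33.7 and 48.4 CPM in Chiron 1 to 3. Every Chiron library was thus above every control, the lowest Chiron library by more than the whole spread of the controls. Its log2 fold change was 2.78 ± 0.23 (SE) with the covariate (edgeR adjusted p = 3.15e-05) and 2.33 without it. The twin gene sia2.S was at 10.1, 5.16 and 5.68 CPM in control and 22.7, 16.6 and 20.2 CPM in Chiron. It rose by 1.97 ± 0.28 (edgeR adjusted p = 0.00336), again with no overlap, and was at 1.51 without the covariate.

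The nodal3 copies encode a divergent Nodal ligand that acts in the organizer. The copy nodal3.1.L was at 11.3, 5.22 and 9.52 CPM in control and 47.1, 36.3 and 49.4 CPM in Chiron, a log2 fold change of 2.96 ± 0.28 (edgeR adjusted p = 0.000101). Its tandem neighbour nodal3.2.L was at 13.2, 4.00 and 5.18 CPM in control and at 27.9, 23.6 and 30 CPM in Chiron, a log2 fold change of 2.67 ± 0.23 (edgeR adjusted p = 4.68e-05). Both were apart from the controls in every Chiron library, and without the covariate nodal3.1.L was at 2.35 and nodal3.2.L at 1.87. The mesendoderm-inducing ligands nodal5 and nodal6, which need the maternal factor VegT as well as β-catenin, were less uniform. The log2 fold change was 1.58 for nodal6.L (edgeR adjusted p = 0.0136) and 1.85 for nodal6.S (edgeR adjusted p = 0.0114), and both rose. For nodal6.L it was 0.43 without the covariate, and control 1, at 21.9 CPM, was above all 3 Chiron libraries. The copies nodal5.L and nodal5.2.L were at 1.03 and 0.85 and did not pass the test (edgeR adjusted p = 0.28 and 0.67).

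For this list, sia1.L, nodal3.1.L and nodal3.2.L were called whichever of the 12 libraries was left out. Without control 2 only these 3 of the 8 were called, and without control 3, 4 were.

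Another gene of very low p was sp5l.L, a Sp/KLF zinc finger gene that belonged to no list. Its levels were 11.02, 3.87 and 4.90 CPM in control and 37.4, 22.9 and 35.0 CPM in Chiron, and its log2 fold change was 2.89 ± 0.27, a rise (edgeR adjusted p = 0.000101). The groups did not overlap, and the homeolog sp5l.S rose by 2.73 (edgeR adjusted p = 0.00431). The related sp5.L, at 1.96, 1.03 and 2.27 CPM in control and 5.91, 2.90 and 4.45 CPM in Chiron, had all Chiron libraries above all controls but did not pass the test (log2 fold change 1.77, edgeR adjusted p = 0.116).

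In the list of organizer genes, 6 of 23 copies rose and 0 fell, against 0.5% and 0.122% of all genes tested. The median log2 fold change of the list was 1.71 (1.05 without the covariate). The 6 were chrd.1.L, chrd.1.S, admp.L, admp.S, pnhd.L and nog.L, all of which encode secreted proteins. Genes were placed in the list by symbol, and where in the embryo each was expressed was not measured. Chordin is the main BMP antagonist of the organizer. Its copy chrd.1.L was at 2.37, 0.387 and 1.14 CPM in control and 10.5, 4.32 and 8.22 CPM in Chiron, and chrd.1.S at 2.12, 0.258 and 0.639 CPM against 9.48, 3.74 and 7.62 CPM. Low in every control and higher in every Chiron library, the copies had log2 fold changes of 3.39 ± 0.55 and 3.89 ± 0.69 and rose (edgeR adjusted p = 0.00947 and 0.0153). Without the covariate their values were 2.59 and 2.83. Another copy, chrd.2.L, was at 0.898, 0.387 and 0.355 CPM in control and 4.43, 1.74 and 3.71 CPM in Chiron. Its log2 fold change of 3.05 did not pass the test (edgeR adjusted p = 0.0682).

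Admp is a BMP-type ligand that is made in the organizer. Its L copy was at 14.4, 3.42 and 5.11 CPM in control and 25.8, 16.0 and 25.8 CPM in Chiron, and rose by 2.49 ± 0.30 (edgeR adjusted p = 0.00095). For admp.S, at 12.8, 1.93 and 5.04 CPM in control and 16.6, 9.41 and 18.5 CPM in Chiron, the groups overlapped because control 1 was above Chiron 2. It rose by 2.42 (edgeR adjusted p = 0.00665). Without the covariate admp.L was at 1.57 and admp.S at 1.18. Noggin, another BMP antagonist, rose in its L copy by 1.95 (edgeR adjusted p = 0.0377), and pnhd.L, which encodes the secreted protein Pinhead, by 2.19 (edgeR adjusted p = 0.00961). Without the covariate nog.L was at 1.19 and pnhd.L at 1.58. The homeolog nog.S was at 1.43 and did not pass the test.

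The homeobox gene goosecoid, a classical organizer marker, was barely detected in its L copy. Levels of gsc.L were 0.326, 0.0645 and 0.355 CPM in control and 1.11, 0.451 and 0.607 CPM in Chiron, mostly within a few counts of the 3-count limit, and the log2 fold change of 1.82 did not pass the test (edgeR adjusted p = 0.49). For gsc.S the levels were 3.101, 0.838 and 1.06 CPM in control and 2.09, 1.29 and 1.69 CPM in Chiron. The groups overlapped, and its log2 fold change was 0.87 with the covariate and 0.05 without it. Of the 23 organizer copies, 22 had positive values and only otx2.S, at −0.26, had a negative one. The transcription factor genes not.S, at 1.32, and foxa4.L, at 2.41, were, after chrd.2.L, nearest to a call among the copies not called (edgeR adjusted p = 0.079 and 0.073). The organizer count moved more between fits than that of the early targets: admp.L alone was called without control 2, 2 genes were without control 3, and 4 were without Chiron 3.

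**Figure D3:**
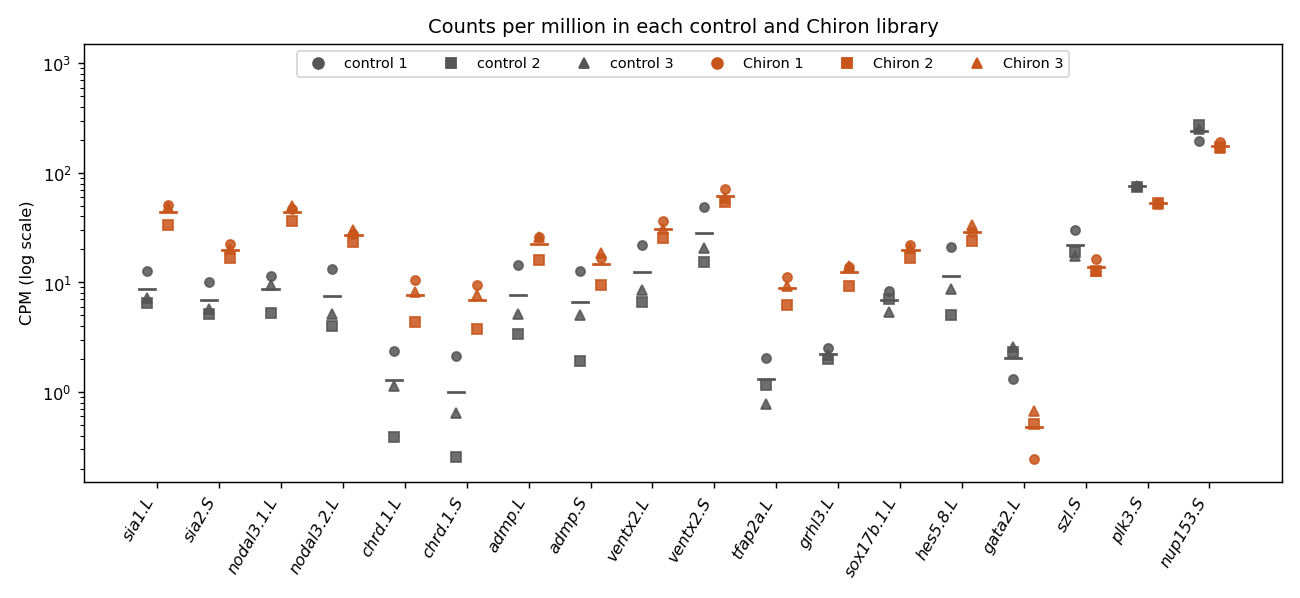
Level in CPM (log scale) of 18 genes in each control library (grey) and each Chiron library (orange), with the shape giving the library number and the bar the group mean. For sia1.L the Chiron libraries lie at 33.7 to 50.5 CPM, above the controls at 6.51 to 12.7 CPM, while for plk3.S they lie at 52.0 to 53.3 CPM, below the controls at 75.0 to 75.7 CPM.

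Among the targets of later, zygotic Wnt signalling no copy was called by edgeR. Of the 20 measured copies in this list, 0 were called in either direction by edgeR with the covariate, and 10 had positive and 10 negative values. Over all genes tested, 0.5% were called higher and 0.122% lower, shares at which a list of this size may hold no call. At an unadjusted p under 0.05 with the covariate there were 5 higher and 1 lower, against 715 and 619 of all 18791 genes. DESeq2 with the covariate called 2 higher. The median log2 fold change was 0.08, and 0.01 without the covariate, and its sign changed under several of the settings tried. The gene wnt8a encodes the zygotic ventrolateral Wnt ligand. Its L copy was at 5.79, 1.48 and 2.06 CPM in control and at 2.89, 3.29 and 3.17 CPM in Chiron, inside the range of the controls. Its log2 fold change of 0.96 with the covariate was not called (edgeR adjusted p = 0.72). The feedback ligases znrf3 and rnf43, which remove Wnt receptors from the cell surface, had values of −0.24 to −0.12 in their 4 copies. The gene sp5 is in this list too, with sp5.L at 1.77 as given above. Its S copy had the highest value of the list, 2.97, with overlapping groups and no call (edgeR adjusted p = 0.31). In 20% of the list all Chiron libraries were above all controls and in 15% below, against 11.1% and 9.35% of all genes tested. Hoxd1, a homeobox target of Wnt8, was at 0.898, 0.258 and 0.781 CPM in control and 2.40, 1.29 and 1.89 CPM in Chiron for its L copy. Those groups did not overlap, yet the log2 fold change of 2.05 did not pass the test (edgeR adjusted p = 0.18). Of the 21 symbols of this list, 8 matched no gene name in the counts, among them axin2, lef1, cdx4 and msgn1. The result therefore does not cover these targets.

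No measured transcript of the pathway itself was called by edgeR. In the list of Wnt ligands, receptors, kinases, β-catenin and its partners, 0 of 68 copies were called by edgeR with or without the covariate. Of the 49 symbols of this list, 8 matched no gene name in the counts, among them wnt11, wnt3a and dvl1. Over all genes tested, 0.5% were called higher and 0.122% lower with the covariate, shares at which a list of this size may hold no call. The median log2 fold change was −0.02 with the covariate and 0.07 without. With the covariate, 3 copies were higher and 5 lower at an unadjusted p under 0.05, and DESeq2 called 1 lower. Over all 18791 genes tested, 715 were higher and 619 lower at that unadjusted p. The transcript of the inhibited kinase gsk3b.S was at 47.4, 82.0 and 61.4 CPM in control and 80.0, 64.9 and 66.1 CPM in Chiron. These values overlapped, and the difference with the covariate was −0.19 (edgeR adjusted p = 0.80). β-catenin, among the more abundant transcripts, was at 548, 789 and 666 CPM in control and 788, 735 and 746 CPM in Chiron for ctnnb1.L, a log2 fold change of −0.01 with the covariate. Since Chiron acts on the kinase protein, none of these transcript levels checks the treatment labels.

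Several BMP-related and ventral genes rose alongside the organizer genes. In this list 6 of 33 copies were called higher and 0 lower, against 0.5% and 0.122% of all genes tested. The list median was 0.43 on the log2 scale with the covariate and −0.06 without it. Of the 6 genes, 4 were copies of ventx2, a homeobox gene induced by BMP signals that represses organizer genes. Levels of ventx2.L were 21.9, 6.58 and 8.52 CPM in control and 36.5, 25.6 and 30.9 CPM in Chiron. The groups did not overlap, and it rose by 2.12 ± 0.33 (edgeR adjusted p = 0.00675). The S copy, the most abundant, was at 48.9, 15.3 and 20.7 CPM in control and 70.9, 53.8 and 59.5 CPM in Chiron, and ventx2.S rose by 1.92 ± 0.30 (edgeR adjusted p = 0.00675). The tandem copies ventx2.2.L and ventx2.2.S rose by 2.17 and 2.06 (edgeR adjusted p = 0.00827 and 0.00665). Without the covariate the 4 ventx2 copies lay between 1.12 for ventx2.S and 1.355 for ventx2.2.L.

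The related ventx1 copies, which also act ventrally, had positive values that did not pass the test, from 1.28 for ventx1.L to 2.46 for ventx1.2.L. For ventx1.L the control levels of 4.65, 1.16 and 1.78 CPM overlapped the Chiron levels of 4.06, 2.19 and 3.64 CPM. The other 2 genes of the list that rose were bmp7.2.L and id3.L. The BMP ligand gene bmp7.2.L was at 52.5, 41.8 and 49.4 CPM in control and 62.1, 65.1 and 73.2 CPM in Chiron, a small but even rise of 0.62 ± 0.09 (edgeR adjusted p = 0.0033). The homeolog bmp7.2.S, at 0.06, was not called (edgeR adjusted p = 0.98). Id3, a helix-loop-helix inhibitor that BMP signals induce, rose by 1.68 in its L copy (edgeR adjusted p = 0.0266), with overlapping groups and a value of 0.92 without the covariate. The ligand bmp4 was not called, with 0.43 for the L and 0.82 for the S copy.

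The feedback inhibitors of BMP signalling in the list, copies of szl, smad6, smad7 and bambi, all had negative values with the covariate, and none was called. Sizzled, a secreted ventral inhibitor of chordin breakdown, was at 30.03, 18.9 and 17.6 CPM in control and 16.4, 12.8 and 12.7 CPM in Chiron for szl.S. All Chiron libraries were below all controls, but neither the log2 fold change of −0.42 with the covariate nor that of −0.66 without it was called (edgeR adjusted p = 0.73 and 0.65). The intracellular inhibitor smad6.L likewise did not overlap, with 35.5, 37.4 and 32.8 CPM in control and 25, 18.5 and 20.6 CPM in Chiron, and was at −0.67 (edgeR adjusted p = 0.10). No member of this list was called without control 2 by edgeR, and 4 were called without control 3. Without BIO 2 the count was 9.

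In the list of mesoderm and endoderm genes 2 of 38 copies rose and 0 fell, against 0.5% and 0.122% of all genes tested. At an unadjusted p under 0.05 with the covariate, 20 of the 38 were higher and 0 lower. Over all 18791 genes tested, 715 were higher and 619 lower at that unadjusted p. DESeq2 with the covariate called 7 of the list higher and 0 lower. Of the 38, 29 had positive values, 76.3% against 53.5% of all genes tested, and the median log2 fold change was 1.15 with and 0.52 without the covariate. The list's median log2(CPM + 1) had a pooled SD of 0.467 between libraries of a group, nearly as large as the median difference without the covariate. The 2 genes that rose were homeologs of sox17b.1, which encodes an endoderm-determining factor. The L copy was at 8.32, 7.03 and 5.33 CPM in control and 21.8, 16.7 and 20.6 CPM in Chiron, a log2 fold change of 1.74 ± 0.26 for sox17b.1.L (edgeR adjusted p = 0.0058). Controls and Chiron libraries were well apart for both copies, and sox17b.1.S rose by 1.04 (edgeR adjusted p = 0.0451). The related sox17a.L was at 1.38 and just missed the threshold (edgeR adjusted p = 0.0522). Mix1, a homeobox gene induced by Nodal signals, is an example of the others: mix1.L was at 11.99, 3.55 and 6.75 CPM in control and 16.9, 7.87 and 13.4 CPM in Chiron. Its log2 fold change of 1.36 was not called (edgeR adjusted p = 0.26), and the libraries overlapped. The count in this list was between 1 and 9 when 1 library was left out, with 9 without BIO 2 and 6 without Chiron 2.

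The ventrolateral mesoderm and blood list held only 4 measured copies, because 13 of its 17 symbols matched no gene name in the counts. Of the 4, 0 were called by edgeR in either fit. At an unadjusted p under 0.05 with the covariate 1 was higher and 1 lower, and DESeq2 with the covariate called 1 higher. Gata2, a factor of ventral ectoderm and blood, had the lowest value of the list. Its L copy was at 1.31, 2.32 and 2.56 CPM in control and at 0.246, 0.516 and 0.674 CPM in Chiron. Every Chiron library was below every control, near the 3-count limit. The log2 fold change was −2.07 with and −2.10 without the covariate, and it was not called (edgeR adjusted p = 0.29 with the covariate). The forkhead gene foxf1.L went the other way, from 0.408, 0.193 and 0.284 CPM in control to 1.72, 0.967 and 0.809 CPM in Chiron. Its groups did not overlap either, and the log2 fold change of 2.17 was not called (edgeR adjusted p = 0.11). As whole embryos were measured, fewer cells of a type and less RNA per cell cannot be told apart.

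In the epidermis list 6 of 35 copies rose and 0 fell, against 0.5% and 0.122% of all genes tested, around a median of 0.02. Of the 35, 19 had positive and 16 negative values, the lowest at −1.17. At an unadjusted p under 0.05 with the covariate, 10 were higher and 5 lower, against 715 and 619 of all 18791 genes. DESeq2 with the covariate called 8 higher and 0 lower. The 6 that rose were both homeologs of tfap2a and of grhl3, with cldn4.S and krt70.S. Tfap2a encodes AP-2α, a regulator of epidermis and of the neural plate border. Its L copy was at 2.04, 1.16 and 0.781 CPM in control and 11.2, 6.25 and 9.37 CPM in Chiron, and tfap2a.L rose by 2.99 ± 0.34 (edgeR adjusted p = 0.000553). The homeolog tfap2a.S rose by 2.67 (edgeR adjusted p = 0.00114). Both had the smallest adjusted p without the covariate, 0.0874, which they shared with grhl3.L, sia1.L, LOC108713875 and LOC108711649.

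Grhl3 is a grainyhead-like factor of the surface ectoderm. Levels of grhl3.L were 2.53, 1.998 and 2.20 CPM in control and 13.9, 9.28 and 14.0 CPM in Chiron, a log2 fold change of 2.86 ± 0.30 (edgeR adjusted p = 0.000268). The copy grhl3.S had less even controls, at 2.04, 0.709 and 0.639 CPM, against 8.19, 5.09 and 8.43 CPM in Chiron, and rose by 3.42 ± 0.37 (edgeR adjusted p = 0.000333). These regulators were apart from control in every Chiron library. For the claudin gene cldn4.S, at 2.48 (edgeR adjusted p = 0.0105), and the keratin gene krt70.S, at 3.27 (edgeR adjusted p = 0.0442), the groups overlapped. Without the covariate cldn4.S was at 1.323 and krt70.S at 1.325. The call on krt70.S held in 4 of the 12 fits with a library left out. Control 1, with 3.101 CPM of krt70.S, was above Chiron 1 and Chiron 2, at 2.65 and 1.999 CPM. The main keratins of the early epithelium were not called, with krt8.1.L and krt18.1.L both at 0.02. Without control 2, 3 genes of this list were called.

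In the neural ectoderm list 1 of 23 copies rose and 0 fell, against 0.5% and 0.122% of all genes tested. At an unadjusted p under 0.05 with the covariate, 9 were higher and 2 lower, against 715 and 619 of all 18791 genes. DESeq2 with the covariate called 4 higher. The copy that rose was lhx5.L, a LIM homeobox gene of the anterior brain. It was at 0.734, 0.838 and 0.852 CPM in control and 4.74, 2.77 and 3.98 CPM in Chiron, with even controls and no overlap. It rose by 1.95 ± 0.40 (edgeR adjusted p = 0.0431), and its log2 fold change without the covariate, 2.23, was the larger. The call was lost without any 1 of 7 libraries. The early neural genes sox2.S and sox3.L were at 0.61 and −0.34, neither called.

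**Figure D4:**
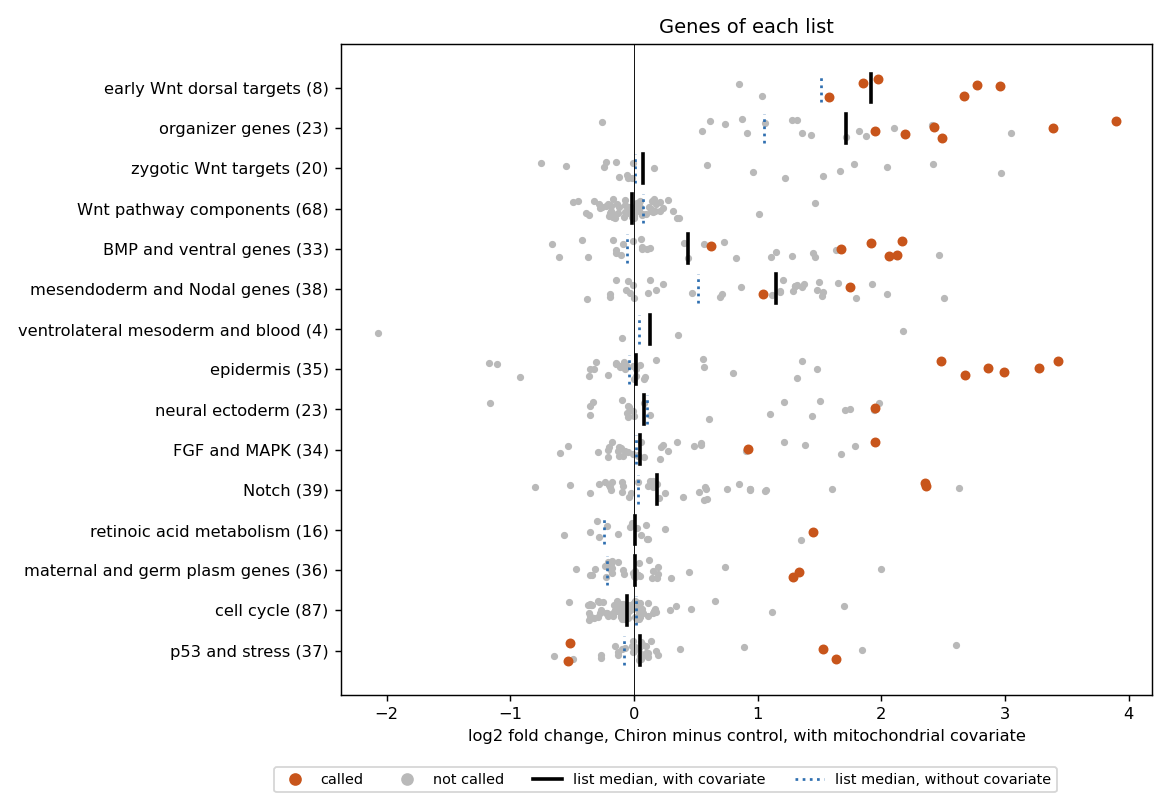
Log2 fold change, Chiron minus control, with the mitochondrial covariate for the copies in each of 15 gene lists (number tested in parentheses); orange points were called, black bars are list medians with the covariate and dotted blue bars those without it. The medians of the early Wnt dorsal targets and organizer genes lie at 1.91 and 1.71, those of the zygotic Wnt targets and pathway components at 0.08 and −0.02.

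Single genes of other signalling pathways rose within lists whose medians were near 0. Over all genes tested, the share that rose was 0.5%. Of 34 FGF and MAPK genes, the phosphatases dusp5.L and dusp1.S, which inactivate MAP kinases, rose by 1.95 ± 0.27 and 0.92 ± 0.15 (edgeR adjusted p = 0.00346 and 0.0107), and the median of the list was 0.04. Both calls were lost without control 2, and that of dusp1.S also without control 3. The homeologs dusp5.S and dusp1.L, at 0.23 and 0.54, were not called (edgeR adjusted p = 0.946 and 0.199). Of 39 Notch genes, both homeologs of hes5.8 rose, members of the Hes family of transcriptional repressors. Levels of hes5.8.L were 21.0, 5.03 and 8.66 CPM in control and 28.8, 24.1 and 33.4 CPM in Chiron, and it rose by 2.36 ± 0.20 (edgeR adjusted p = 3.15e-05). Chiron and control did not overlap, but control 1 lay close to Chiron 2, and the value without the covariate was 1.32. The call on hes5.8.L held whichever library was left out, while that on hes5.8.S held in 5 of the 12 fits. The Notch receptors notch1.L and notch1.S were at −0.20 and −0.24 and were not called.

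For the retinoic acid-degrading enzyme gene cyp26a1 the homeologs had values of opposite sign, a difference that was not itself tested. The S copy rose by 1.44 (edgeR adjusted p = 0.0425), with overlapping groups and a call that held in 3 of the 12 fits with a library left out. The L copy was lower in all Chiron libraries, at 27.6, 20.6 and 21.9 CPM against 47.4, 35.8 and 35.4 CPM in control, but its value of −0.57 was not called (edgeR adjusted p = 0.38). With both copies summed and no covariate, the log2 fold change was −0.20, opposite to the 0.85 of the S copy.

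Among maternal transcripts the called genes were the copies of the POU factor gene pou5f3.2, a relative of mammalian Oct4 that is active in the early zygotic embryo as well. Of 36 copies 2 rose, against 0.5% of all genes tested: pou5f3.2.L by 1.33 (edgeR adjusted p = 0.0217) and pou5f3.2.S by 1.28 (edgeR adjusted p = 0.0442). The L copy was at 83.3, 48.5 and 48.9 CPM in control and 126, 93.0 and 116 CPM in Chiron, without overlap. The list median was 0.01 with and −0.22 without the covariate. Calls on both copies were lost without control 1, control 2 or control 3, or without Chiron 1 or Chiron 3.

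Of 87 copies of cell cycle genes, 0 were called by edgeR with the covariate and 0 by DESeq2, at a median of −0.06. The shares called by edgeR over all genes tested were 0.5% higher and 0.122% lower, so a list of this size may hold no call. At an unadjusted p under 0.05 with the covariate, 2 cell cycle copies were higher and 7 lower, against 715 and 619 of all 18791 genes. In the list of p53 and stress genes 2 of 37 rose and 2 fell, against 0.5% and 0.122% of all genes tested. The growth arrest genes gadd45g.L and gadd45g.S rose by 1.63 and 1.53 (edgeR adjusted p = 0.0033 and 0.0028). Without the covariate their values were 0.89 and 0.74, and the groups overlapped for gadd45g.S. Those that fell were the homeologs of plk3, a polo-like kinase of the stress response. Levels of plk3.S were 75.6, 75.0 and 75.7 CPM in control and 53.01, 53.3 and 52.0 CPM in Chiron, even within each group and apart between them. It fell by 0.52 ± 0.09 with the covariate (edgeR adjusted p = 0.0122), and its value without the covariate was −0.52. The homeolog plk3.L was at 87.1, 80.0 and 79.3 CPM in control and 54.1, 57.1 and 54.9 CPM in Chiron, and fell by 0.53 (edgeR adjusted p = 0.0442). None of the 4 genes was called without control 2, and the plk3 copies were not called without control 3 or Chiron 3.

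The gene groups closest to the covariate were the ribosomal proteins and the mitochondrial transcripts, and neither held a called gene by edgeR or DESeq2 with the covariate (4 and 1 at an unadjusted p under 0.05). The median log2 fold change of 142 ribosomal protein genes was −0.62 without the covariate, with 141 negative values, and −0.07 with it. The median of the 12 mitochondrially encoded genes was −2.37 without and −0.04 with the covariate that was made from them. With control 2 as the only control the ribosomal median without the covariate was −0.06 and the mitochondrial one 0.50, so neither list was as low against control 2 as against the mean of the controls.

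The genes of largest rise outside the lists included xmc.L, the marginal coil gene of the gastrula marginal zone. It was at 1.96, 0.322 and 0.852 CPM in control and 7.02, 4.00 and 8.22 CPM in Chiron, and rose by 3.67 ± 0.46 (edgeR adjusted p = 0.0028) with no overlap. The chemokine receptor gene cxcr4.L was at 25.1, 11.6 and 12.99 CPM in control and 32.8, 31.7 and 34.8 CPM in Chiron. It rose by 1.59 ± 0.19 (edgeR adjusted p = 0.000727), and all Chiron libraries were above control 1, the highest control. The homeolog cxcr4.S rose by 1.30 (edgeR adjusted p = 0.0122), although control 1, at 11.3 CPM, was above Chiron 1, at 10.4 CPM.

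The 23 genes that fell did so by small amounts, with log2 fold changes from −1.01 to −0.41. The largest fall was that of tsc1.S, a gene of the complex that restrains mTOR signalling, by 1.01 ± 0.20 (edgeR adjusted p = 0.036). Its levels were 9.63, 29.9 and 21.3 CPM in control and 18.8, 13.8 and 12.8 CPM in Chiron. The groups overlapped because control 1 was the lowest of all, and its log2 fold change without the covariate was −0.42. By contrast, ccnj.S, which encodes cyclin J, had even levels of 26.5, 27.3 and 28.3 CPM in control and 17.6, 16.1 and 16.99 CPM in Chiron. It fell by 0.90 (edgeR adjusted p = 0.0227). With 1 library left out, the call held in 5 of 12 fits for tsc1.S and in 8 for ccnj.S.

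The nuclear pore gene nup153.S was the most abundant of the named genes that fell, at 196, 276 and 252 CPM in control and 191, 174 and 168 CPM in Chiron. It fell by 0.66 ± 0.10 (edgeR adjusted p = 0.00513), with control 1 just above Chiron 1, and was the only named gene that fell to be called whichever library was left out. Other falls were those of pan3.L, a subunit of a deadenylase, at −0.89, and fbxo8.L, an F-box gene, at −0.80. The DNA crosslink repair gene dclre1a.L was at 80.4, 76.8 and 70.2 CPM in control and 54.7, 37.0 and 38.2 CPM in Chiron and fell by 0.78 (edgeR adjusted p = 0.0387). Smaller falls were those of rab11fip5.L, a Rab11 effector, at −0.68, zswim9.L at −0.64, the Integrator-related ints6l.L at −0.62 and the transcription factor gene ets2.L at −0.59. With 1 library left out, the calls on pan3.L and zswim9.L held in 9 of 12 fits. The call held in 5 fits for ets2.L, 4 for dclre1a.L, 3 for rab11fip5.L and ints6l.L and 2 for fbxo8.L. The groups overlapped for pan3.L and rab11fip5.L, whose values without the covariate were −0.52 and −0.34. The gene with identifier LOC108713875, which has no symbol in the RefSeq table, fell by 0.95 ± 0.13 (edgeR adjusted p = 0.00273), from 145, 128 and 112 CPM in control to 73.5, 61.0 and 63.2 CPM in Chiron.

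Across the 58 named genes, 43 were called with the covariate. Of these 43, 11 were called in all 12 fits that left out 1 library: sia1.L, nodal3.1.L, nodal3.2.L, sp5l.L, admp.L, hes5.8.L, tfap2a.L, grhl3.L, grhl3.S, sox17b.1.L and nup153.S. Another 11 were called in 11 of 12 and lost only without control 2, among them the ventx2.L, ventx2.S and gadd45g copies. For 14 the call held in 8 fits or fewer.

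Many homeologs of the genes that rose were called as well. Of the 94 genes that rose, 46 had a tested homeolog of the same symbol. In 43 of these 46 the homeolog had the same sign, and in 30 it was itself called. Those 30 make 15 gene pairs, each counted from both sides among the 46. The median log2 fold change of the homeologs was 1.73. Of the 23 that fell, 17 had a tested homeolog, of which 14 had the same sign and 2, the plk3 copies, were called, at a median of −0.23. For comparison, the signs agreed in 64.1% of all 5203 tested homeolog pairs. Homeologs can share reads, and the sources used here do not say how such reads were counted.

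**Figure D5:**
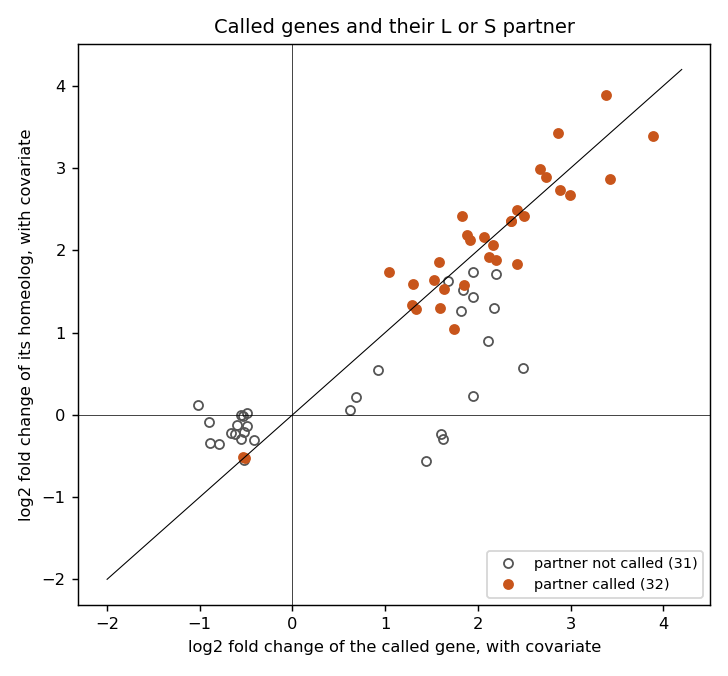
Log2 fold change with the covariate of each called gene (x axis) and of its L or S homeolog (y axis), 63 points in all; filled points have a called homeolog and the diagonal marks equal values. Among genes that rose most homeologs lie near the diagonal, with a median of 1.73, while for genes that fell they lie near 0, with a median of −0.23.

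Some of the genes that rose lie side by side in the genome. In the gene order of the X. laevis 10.1 assembly in RefSeq, 112 of the 117 called genes could be placed, and 21 of them formed 8 runs of adjacent tested genes. How many runs as many genes drawn from all those placed would form was not worked out. The longest run, on chromosome 3L, held 5 genes: nodal3.1.L, LOC108710348, nodal3.2.L, LOC108711649 and LOC108711650, with log2 fold changes of 2.30 to 2.96. On the same chromosome sia1.L stood beside LOC108710651 and LOC108710652, at 2.78, 2.88 and 1.90. On chromosome 3S sia2.S stood beside LOC108703460, at 1.97 and 2.67, and on 1L pnhd.L beside admp.L, at 2.19 and 2.49. With the covariate, the 3 genes of smallest p among all tested were the unnamed neighbours LOC108711649, LOC108711650 and LOC108710651. Of the 94 genes that rose, 35 have an identifier only, 37.2% against 15.6% of all genes tested. Reads shared between tandem copies cannot be told apart from a joint rise here.

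BIO, the other compound of the series that inhibits the same kinase, was the group nearest in design, and Chiron was compared with it directly. The compounds differ in scaffold, BIO being a bromoindirubin oxime and Chiron an aminopyrimidine, and without their doses in the sources used here the comparison cannot be matched for dose. Without the covariate 0 genes differed by edgeR (217 at an unadjusted p under 0.05, and 2 by DESeq2). With it 1 gene did, 0.00532% of those tested (744 unadjusted, and 14 by DESeq2). A test that finds few differences does not show that the compounds act alike. For sia1.L the difference, Chiron minus BIO, was −0.32 on the log2 scale with a 95% interval of −0.70 to 0.05. The interval lay apart from 0 for cxcr4.L, at 1.0 (0.65 to 1.35), and for id3.L, at −1.47 (−2.0 to −0.94), but neither passed the test over all genes (edgeR adjusted p = 0.14 and 0.16).

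The gene that differed, LOC121399351, was at 3.94, 4.64 and 4.52 CPM in Chiron and 0.913, 0.912 and 0.758 CPM in BIO, a log2 difference of 2.29 ± 0.29 (edgeR adjusted p = 0.0228). Controls lay between, at 2.61, 1.93 and 2.06 CPM, and against control the Chiron value of 1.23 was not called (edgeR adjusted p = 0.11). The number of genes called between Chiron and BIO was 0 without control 2 and 6 without genistein 2. Against the same 3 controls, and so not independently, the median log2 fold change with the covariate was 1.91 in Chiron and 2.05 in BIO for the early dorsal targets. It was 1.71 and 1.86 for the organizer genes, and 1.15 and 1.58 for the mesendoderm genes.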

How the data were processed

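RNA was sequenced from stage 9.5 Xenopus laevis embryos, 3 embryos and 60 ng of total RNA per library, with strand-specific poly-A libraries per the labels' protocols. The deposited table holds raw whole-number counts for each gene in 12 libraries, 4 groups of 3. STAR 2.5.2b and edgeR are named in the submitters' processing notes. The sources used here name no genome build, annotation or counting tool. The counts were fitted with edgeR 4.0.16 in R 4.3.3, using filterByExpr, TMM, and a quasi-likelihood fit of all 12 libraries with group means, without and with the centred log2 percent of counts on 12 mitochondrially encoded genes. P-values were adjusted by Benjamini-Hochberg over all genes tested. The filter removed 101 genes, which held 0.00357% of counts. DESeq2 1.42.0 was an alternative. The steps were tested on simulated counts. Symbols and gene order came from a RefSeq table of assembly 10.1, which held 17475 of the 18892 names.

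The comparison, the gene lists (17) and the rule for named genes were chosen with earlier results of these data known. The rule names the 10 symbols of smallest p without the covariate, the 10 largest rises and 10 largest falls called with it at a mean of at least 1 CPM, up to 2 called genes per list, and all copies of sia1, sia2, nodal3, gsc, chrd, sp5, wnt8a, ventx1, ventx2, szl, znrf3, lef1 and gata2. Other genes, such as cxcr4, sp5l.S and those with identifiers only, were named after their values were seen. Counts of 3 set the detection limit, for counting error only. Replicate numbers were not used to pair the libraries in the main fits. Other settings are given at the end.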

Additional observations from a re-analysis of the deposited data

Results flagged for a closer look

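One gene differed between the effects of the kinase inhibitors when the difference itself was tested. For LOC121399351 the log2 difference, Chiron minus BIO, was 2.29 with the covariate (edgeR adjusted p = 0.0228), with levels above control in all 3 Chiron libraries and below control in all 3 BIO libraries. The gene has no symbol in the RefSeq table and was counted at under 5 CPM in these 9 libraries. Groups of 3 libraries are too small for a test of single outlying libraries, so none was made.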

How the results depend on the processing

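All 94 higher and all 23 lower genes had the same direction in each covariate fit in which they were tested as separate copies, and the median of all genes moved by less than 0.1 on the log2 scale in every setting. The number of calls moved much more. Without the covariate there were 0 higher and 0 lower genes with 6 libraries only, DESeq2 size factors, mitochondrial genes left out of library sizes, no filter, a filter of 1 CPM in 3 libraries, homeologs summed, or control 2 as the only control. Library totals gave 6 higher, DESeq2 gave 31 higher, 24 lower and 2 genes between Chiron and BIO, and leaving out control 1, genistein 1 and genistein 3, the libraries of largest mitochondrial share, gave 119, 27 and 2. With the covariate that last setting gave 208, 167 and 25, DESeq2 164, 61 and 14, and the untransformed mitochondrial percent 161 higher. With 6 libraries only and the covariate, 76 higher and 14 lower genes were called, which included 67 of the 94 and 10 of the 23. Fewer lower genes were also called with homeologs summed (8). With control 2 as the only control, added after the data were seen, the control has no replicate and the spread comes from the other groups; there were 13 higher, 1 lower and 0 between Chiron and BIO. The causes of these changes were not tested.

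Leaving out 1 library at a time gave 24 to 138 higher, 2 to 39 lower and 0 to 6 genes between Chiron and BIO with the covariate, and 0 to 12, 0 to 2 and 0 to 1 without it. Correlations of deviations between same-numbered Chiron and control libraries were 0.03, 0.11 and −0.01, and the main fits did not take the numbers as pairs. With 3 libraries per group, these values cannot show whether same-numbered libraries shared a clutch or batch. A replicate block gave 137 higher, 27 lower and 15 between Chiron and BIO with the covariate, and 0, 0 and 0 without it.

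Among single genes without the covariate, the sign of wnt8a.L turned, to −0.00133 with DESeq2 size factors, −0.0167 with mitochondrial genes out of library sizes and −0.0140 with DESeq2. With homeologs summed, values turned to 0.10 for ccnj.S, −0.20 for cyp26a1.S and 0.23 for tsc1.S. With 1 library left out, values ranged from −0.28 to 0.83 for gsc.S, from −0.32 to 0.82 for wnt8a.L and from −0.22 to 0.96 for wnt8a.S, and all of these ranges cross 0. Depth limits gsc.L, wnt8a.S, sp5.S and gata2.L, whose levels came near 3 counts in some libraries. It also limits called genes of large rise. In control 2, where 3 counts were worth 0.203 CPM, krt70.S and chrd.1.S were at 0.258, xmc.L at 0.322 and chrd.1.L at 0.387 CPM. In control 3 krt70.S was at 0.142 CPM. The log2 fold changes of these genes thus rest on few control counts.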
